A study of Mus musculus with 8 samples.

Results

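The genes described here are 10 autophagy genes, 5 that encode cargo receptors (Sqstm1, Nbr1, Optn, Tax1bp1 and Calcoco1) and 5 of the LC3 family (Map1lc3a, Map1lc3b, Gabarap, Gabarapl1 and Gabarapl2). They were taken by symbol from the 24860 genes listed in every library, and all 10 were found. The set was chosen by function and selected on the FPKM difference between genotypes, with a strong rise of Sqstm1 as part of the rule, so their differences between genotypes are given as a description, and nothing is read from the one count of them past a threshold. RNA was measured in MII oocytes, eggs arrested in the metaphase of their second meiotic division, in 4 libraries of Esrp1 knockout females (Esrp1-KO) and 4 of wild-type females (WT). All females were C57BL/6 at postnatal day 42, and neither group received a treatment that the labels name. The labels give the genotype as Esrp1 knockout and name no Cre driver or promoter. The protein made from Esrp1 binds RNA and steers the choice of exons, as first described in epithelia. Each library came from a tube of 15 lysed oocytes, so a level is an average over eggs, and a smaller number of eggs with a transcript cannot be told apart from fewer copies in each egg. How tubes related to animals is not given in the sources used here, so each p-value compares the genotypes with the tube-to-tube spread alone.

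Macroautophagy encloses cytoplasm in a double membrane, the autophagosome, and delivers it to the lysosome. Proteins of the LC3 and GABARAP subfamilies are joined to the lipid phosphatidylethanolamine on that membrane, and receptors hold a cargo with one part of the protein and LC3 with another. Fully grown oocytes do not transcribe, so the transcripts of an egg are those stored and kept from growth. Autophagy is known to run in mouse eggs soon after fertilization, when it turns over maternal proteins.

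Esrp1 itself (ENSMUSG00000040728, chromosome 4, bases 11331933 to 11386783 of GRCm38, minus strand) was low in the knockout eggs. Its level was 3.62, 3.43, 2.31 and 3.83 FPKM (fragments scaled by exon length and by the library total) in Esrp1-KO replicates 1 to 4, against 17.1, 17.2, 19.5 and 16.2 FPKM in WT replicates 1 to 4. The log2 difference, Esrp1-KO over WT, was -2.12 ± 0.15 (SE; limma, Benjamini-Hochberg adjusted p = 1.32e-05). The libraries held 24910433 to 32337965 reads in Esrp1-KO and 25018185 to 28932108 reads in WT, as worked out from the steps of the FPKM values. WT replicate 1 stood apart in listing 20047 genes above 0, against at most 18100 in the other 7 libraries. In that library 27 genes reached 1 FPKM that were at 0 in the other 7. Of 12 oocyte markers, 11 had a mean of at least 1 FPKM, led by Oosp1 and Gdf9, and the summed level of the list was 9833 to 11418 FPKM in Esrp1-KO and 8702 to 9699 FPKM in WT. That sum hides markers that went opposite ways without overlap, looked up after their values were seen. Dazl (258 to 426 FPKM in Esrp1-KO, 809 to 973 FPKM in WT) and Mos were lower in Esrp1-KO. Zp1, Zp2, Zp3, Padi6 and Ooep were higher in Esrp1-KO, and the other oocyte markers overlapped. Granulosa or cumulus markers, of which 2 of 10 (Cyp19a1 and Kitl) had a mean of at least 1 FPKM, summed to 3.31 to 4.66 FPKM in Esrp1-KO and 8.15 to 11.2 FPKM in WT, with Fshr and Ptx3 at 0 in 7 libraries each. Immune markers, led by Cd68 and Lyz2, had 1 of 8 genes at that mean and summed to 0.626 to 12.7 FPKM in Esrp1-KO and 0.367 to 1.59 FPKM in WT, and the top value belonged to Esrp1-KO replicate 3. Stroma, endothelium and blood markers, led by Pecam1 and Dcn, had 2 of 6 genes at that mean and summed to 6.58 to 9.08 FPKM in Esrp1-KO and 4.4 to 6.27 FPKM in WT. The part of these cell types and of WT replicate 1 in the differences below was not tested. A value given without 1 library shows only how far the result rests on that library. It cannot test the oocyte, granulosa and stroma lists, whose sums did not overlap between genotypes.

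Sqstm1 encodes p62, the receptor that gathers ubiquitin-tagged proteins into droplets and ties them to LC3, and that also holds KEAP1, the brake on the stress factor NRF2. The gene (ENSMUSG00000015837) lies on the minus strand of chromosome 11, bases 50199366 to 50210827 of GRCm38. Its level was 32.7, 19.8, 20.5 and 20.5 FPKM in Esrp1-KO replicates 1 to 4, against 5.02, 2.70, 1.65 and 2.55 FPKM in WT replicates 1 to 4. Replicate 1 was the highest library within each genotype, and the genotypes did not overlap. The mean was 23.4 ± 6.23 FPKM in Esrp1-KO and 2.98 ± 1.43 FPKM in WT (SD, n = 4 each), a ratio of 7.85. On the log2(FPKM + 1) scale the difference was 2.65 ± 0.25 (SE), the 3rd highest of the 8021 genes whose mean reached 1 FPKM. Between same-numbered libraries the log2 difference was 2.49, 2.49, 3.02 and 2.60. These values rest on 3553, 1659, 1975 and 1943 reads in Esrp1-KO and 444, 227, 156 and 248 reads in WT. Left without WT replicate 1, the WT mean was 2.30 ± 0.57 FPKM (SD, n = 3), and the ratio of Esrp1-KO to WT was 10.2. Left without Esrp1-KO replicate 3, the library with the most immune marker RNA, the log2 difference was 2.70. That value does not test the part of any cell type.

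Part of the Sqstm1 transcript lies opposite another gene, Mrnip, which is transcribed from the plus strand, and Smart-seq2 reads do not keep the strand. The overlap covers 17.3% of the Sqstm1 exon bases. Mrnip, looked up after its overlap with Sqstm1 was seen, had 1.55, 2.19, 2.24 and 1.66 FPKM in Esrp1-KO, against 1.75, 2.92, 2.98 and 2.14 FPKM in WT. Its 96 to 131 reads in Esrp1-KO and 94 to 171 reads in WT were far fewer than the Sqstm1 reads of Esrp1-KO, but in WT replicate 3 the 171 Mrnip reads outnumbered the 156 Sqstm1 reads. Its log2 difference was -0.24 ± 0.16 (SE; limma, adjusted p = 0.28).

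The sequences before 3 of the receptor genes are shown because the genes' levels in the eggs differed in kind: Sqstm1 was high in one genotype and low in the other, Calcoco1 was low in both and Tax1bp1 was high in both. They are the 250 bases before the transcript start in RefSeq on GRCm38.p6, read 5′ to 3′ on the gene's own strand. Capitals mark the letters GGGCGG, the GC box to which SP1-type factors bind, or its reverse complement CCGCCC.
Sqstm1 (chr11:50210821-50211070, minus strand): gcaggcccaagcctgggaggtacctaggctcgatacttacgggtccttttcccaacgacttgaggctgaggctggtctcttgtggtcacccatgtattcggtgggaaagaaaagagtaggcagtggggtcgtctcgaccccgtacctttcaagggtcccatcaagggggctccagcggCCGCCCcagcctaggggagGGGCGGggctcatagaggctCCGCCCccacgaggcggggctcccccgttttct
Calcoco1 (chr15:102722179-102722428, minus strand): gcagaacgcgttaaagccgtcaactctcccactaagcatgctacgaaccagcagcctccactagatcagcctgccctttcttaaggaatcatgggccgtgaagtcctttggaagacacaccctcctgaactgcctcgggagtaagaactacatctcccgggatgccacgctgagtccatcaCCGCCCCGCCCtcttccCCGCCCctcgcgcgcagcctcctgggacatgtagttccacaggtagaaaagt
Tax1bp1 (chr6:52713479-52713728, plus strand): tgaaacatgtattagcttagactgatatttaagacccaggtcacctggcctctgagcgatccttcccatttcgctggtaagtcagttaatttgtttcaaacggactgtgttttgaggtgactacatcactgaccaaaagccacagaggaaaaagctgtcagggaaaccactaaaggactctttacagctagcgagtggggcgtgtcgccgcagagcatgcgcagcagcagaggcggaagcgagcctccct
The Sqstm1 window held 3 GC boxes, which begin 72, 53 and 33 bases before the start, and its GC content was 63.2%. The Calcoco1 window also held 3, which begin 69, 64 and 52 bases before the start, the first and second sharing 1 base, at a GC content of 57.6%. The Tax1bp1 window shown held none at a GC content of 50%. A second window of Tax1bp1, not shown, also held none, at a GC content of 70.8%, so its GC content depends on the start used. Among all 32851 promoter windows of this length in the table, 32.7% held a GC box on either strand.

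Promoter windows were found for 9 of the 10 genes, all but Map1lc3a, and 6 of the 9 had a GC box in a window. The E-box-like letters CACGTG, the core of the site that TFEB-type factors bind, were in no window of the 9 genes and in 6.02% of all windows. The letters TGACNNNGC, the core of the antioxidant response element, occurred once, in a second window of Tax1bp1, and in 10.2% of all windows. Both were searched on both strands, and only in the 250 bases before a start. Sites farther from the start or within the gene were not searched for.

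**Figure D1:**
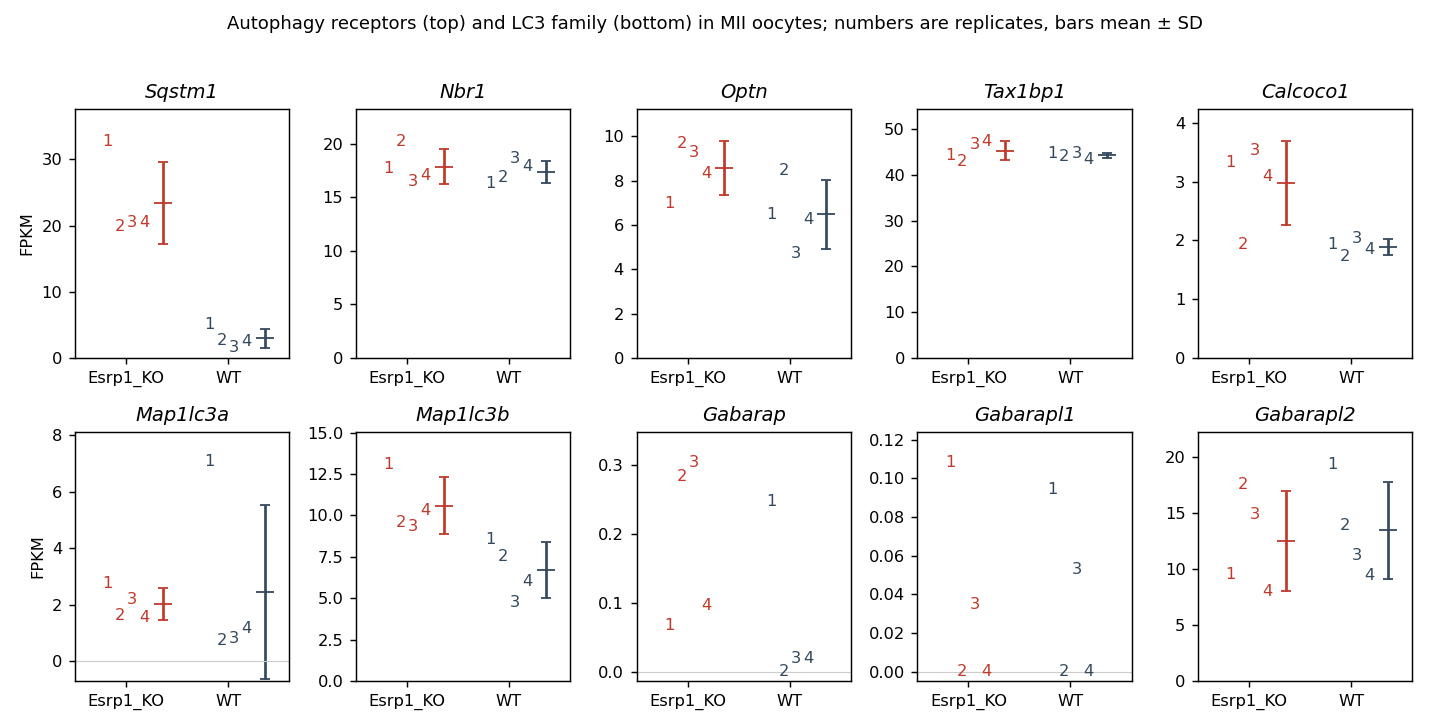
Level of each gene in FPKM, with each digit standing for the library of that replicate number, Esrp1_KO left and WT right in each panel. A grey line marks 0, and the axis reaches below it for Map1lc3a, Gabarap and Gabarapl1. Bars give mean ± SD over 4 libraries, and none is drawn for Gabarap and Gabarapl1. The WT bar of Map1lc3a runs below 0 because its SD exceeds its mean. Sqstm1 and Map1lc3b are the genes whose genotypes do not overlap, and in Map1lc3a WT replicate 1 lies at 7.06 FPKM, far above the others.

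The other ubiquitin-binding receptors differed far less. Nbr1, a larger relative of p62 that joins it in ubiquitin droplets, had 17.7, 20.2, 16.5 and 17.0 FPKM in Esrp1-KO, against 16.3, 16.8, 18.6 and 17.9 FPKM in WT. The genotypes overlapped, with means of 17.8 ± 1.65 FPKM in Esrp1-KO and 17.4 ± 1.03 FPKM in WT (SD, n = 4 each) and a log2 difference of 0.03 ± 0.11 (SE). Tax1bp1, which binds ubiquitin and brings the machinery that starts an autophagosome to p62 droplets, had 44.3, 42.8, 46.6 and 47.3 FPKM in Esrp1-KO, against 44.7, 44.1, 44.7 and 43.4 FPKM in WT. No library of either genotype stood away from the rest, and the log2 difference was 0.03 ± 0.10 (SE). The coefficient of variation of Tax1bp1 over all 8 libraries was 3.35%, and 1 of the 8021 genes had a smaller one, where the median gene had 29.3%. For Nbr1 it was 7.37%, and 53 genes had a smaller one. This steadiness depended in part on the scale: when libraries were set level by the median of gene ratios, the coefficient was 7.19% for Tax1bp1, with 68 genes below it, and 8.06% for Nbr1, with 115 genes below it.

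Optn encodes optineurin, a receptor for ubiquitin-tagged mitochondria and bacteria. It had 6.99, 9.69, 9.28 and 8.33 FPKM in Esrp1-KO, against 6.48, 8.48, 4.71 and 6.26 FPKM in WT. Esrp1-KO was the higher library in 4 of 4 same-numbered pairs, but the labels state no pairing. The ranges overlapped, with Esrp1-KO replicate 1 below WT replicate 2. The means were 8.57 ± 1.20 FPKM in Esrp1-KO and 6.48 ± 1.54 FPKM in WT (SD, n = 4 each), a ratio of 1.32, and the log2 difference was 0.37 ± 0.17 (SE). Without WT replicate 2, the highest WT library, it was 0.49.

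Calcoco1 encodes a receptor for the degradation of endoplasmic reticulum and had the lowest level of the 5 receptors. It had 3.33, 1.93, 3.53 and 3.08 FPKM in Esrp1-KO, against 1.93, 1.72, 2.04 and 1.85 FPKM in WT. Replicate 2 of Esrp1-KO lay within the WT range, and the other 3 Esrp1-KO libraries lay above it. The means were 2.97 ± 0.71 FPKM in Esrp1-KO and 1.89 ± 0.13 FPKM in WT (SD, n = 4 each), on 191 to 427 reads in Esrp1-KO and 171 to 228 in WT, and the log2 difference was 0.44 ± 0.15 (SE). The annotated exon length gave no whole reads for Calcoco1, so these reads rest on a searched length and are less certain. With each library left out in turn it ran from 0.37 to 0.58, the upper end without Esrp1-KO replicate 2.

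Among the LC3 family, Map1lc3b was the one whose genotypes did not overlap. It encodes LC3B, the form most used to mark autophagosomes. It had 13.1, 9.60, 9.32 and 10.3 FPKM in Esrp1-KO, against 8.52, 7.54, 4.73 and 6.01 FPKM in WT. Every Esrp1-KO library was above every WT library, though replicates 3 of Esrp1-KO and 1 of WT were close, and replicate 1 was the highest in each genotype, as for Sqstm1. The means were 10.6 ± 1.74 FPKM in Esrp1-KO and 6.70 ± 1.67 FPKM in WT (SD, n = 4 each), a ratio of 1.58, with a log2 difference of 0.61 ± 0.18 (SE). With each library left out in turn it ran from 0.47, without WT replicate 3, to 0.72. Pseudogene loci share 6.01% of its 50-base stretches.

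Map1lc3a, which encodes LC3A, was lower still, and its comparison turned on 1 library. It had 2.75, 1.6, 2.19 and 1.53 FPKM in Esrp1-KO, against 7.06, 0.745, 0.812 and 1.17 FPKM in WT. WT replicate 1 was the highest of all 8 libraries and the other 3 WT libraries were below every Esrp1-KO library. The means were 2.02 ± 0.57 FPKM in Esrp1-KO and 2.45 ± 3.08 FPKM in WT (SD, n = 4 each), and the log2 difference was 0.13 ± 0.44 (SE), of the opposite sign to the difference of the means. Without WT replicate 1 the WT mean was 0.909 ± 0.229 FPKM (SD, n = 3), the ratio of Esrp1-KO to WT was 2.22 and the log2 difference was 0.65. The reads behind it were 47 to 105 in Esrp1-KO and 22 to 220 in WT.

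The GABARAP subfamily was carried in these eggs by Gabarapl2, which encodes GATE-16. It had 9.54, 17.6, 14.9 and 8.03 FPKM in Esrp1-KO, against 19.4, 13.9, 11.2 and 9.45 FPKM in WT. The genotypes overlapped over most of their ranges, and in replicates 1 and 4 Esrp1-KO was the lower library, in replicates 2 and 3 the higher one. The means were 12.5 ± 4.51 FPKM in Esrp1-KO and 13.5 ± 4.33 FPKM in WT (SD, n = 4 each), and the log2 difference of -0.11 ± 0.27 (SE) was -0.58 in replicates 1 and 4 alone and 0.35 in replicates 2 and 3 alone, so it has no stable sign. Pseudogene loci share 12.2% of its 50-base stretches, so reads may be divided among them. Gabarap and Gabarapl1, the founding member of the subfamily and its closest relative, were near 0. Gabarap had 4, 13, 16 and 5 reads in Esrp1-KO, against 12, 0, 1 and 1 reads in WT, which is at most 0.303 FPKM in Esrp1-KO and 0.247 FPKM in WT. Without WT replicate 1 its ratio of Esrp1-KO to WT was 14.8, on WT libraries of 0, 1 and 1 reads. Gabarapl1 had 7, 0, 2 and 0 reads in Esrp1-KO, against 5, 0, 3 and 0 reads in WT, and a transcript on the opposite strand overlaps 28.3% of its exon bases.

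Of the 10 genes, 8 averaged 1 FPKM or more across all libraries and entered the fit. Of these 8, 3 were past the threshold and higher in Esrp1-KO (Sqstm1, Map1lc3b and Calcoco1), 0 were lower, and 5 were not past it. Over all 8021 genes in the same fit, 36.9% were past the threshold: 13.9% of the 8021 were higher in Esrp1-KO and 23.1% of the 8021 were lower. The count of 3 was 1 without Esrp1-KO replicate 1, Esrp1-KO replicate 4, WT replicate 3 or WT replicate 4, and 4 with quantile normalization. Sqstm1 and Map1lc3b were the 2 of the 8 with non-overlapping genotypes and a higher level in Esrp1-KO, against 13.5% of all genes tested (36.8% in either direction). The median log2 difference of the 8 genes was 0.25, against -0.06 over all genes tested. Since the choice of genes used this contrast, nothing is read from these counts.

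**Figure D2:**
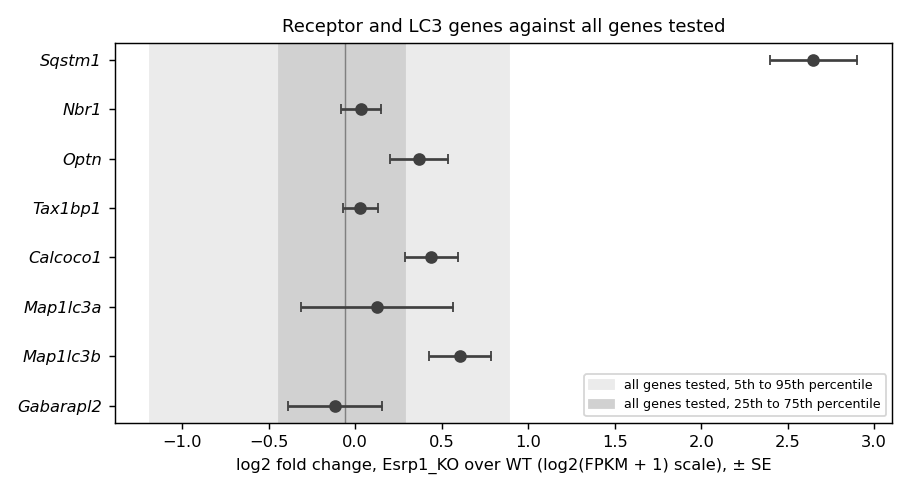
Log2 difference of FPKM + 1, Esrp1_KO minus WT, for the 8 genes that entered the fit, with points for the estimate, bars for ± SE, shading for the 5th to 95th and 25th to 75th percentiles of all 8021 genes and a line at their median. Sqstm1 lies at 2.65, beyond the 95th percentile of all genes at 0.89, while Nbr1 and Tax1bp1 lie at 0.03.

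FPKM are scaled by exon length, so levels of different genes can be set side by side, but only roughly. For Calcoco1, whole reads came from a length other than that of its annotated exons. For the other members, the length that gave whole reads was that of all annotated exons of a gene. Which of these exons the eggs use was not examined, so the order here and the shares below are approximate. In Esrp1-KO eggs the order of means was Tax1bp1, Sqstm1, Nbr1, Gabarapl2, Map1lc3b, Optn, Calcoco1, Map1lc3a, Gabarap and Gabarapl1. Neighbours in it overlapped between libraries except Tax1bp1 over Sqstm1, Optn over Calcoco1 and Map1lc3a over Gabarap. In WT eggs the order was Tax1bp1, Nbr1, Gabarapl2, Map1lc3b, Optn, Sqstm1, Map1lc3a, Calcoco1, Gabarap and Gabarapl1. There, Tax1bp1 stood clear of Nbr1, Gabarapl2 of Map1lc3b and Calcoco1 of Gabarap, and all other neighbours overlapped. Sqstm1 was thus 2nd of the 10 in Esrp1-KO and 6th in WT. Among the 8021 genes tested, 1555 had a higher mean level than Sqstm1 in Esrp1-KO and 5485 in WT.

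The summed level of the 5 receptors was 98.0 ± 4.75 FPKM in Esrp1-KO and 73.0 ± 1.34 FPKM in WT (SD, n = 4 each), and the ranges, 94.5 to 105 FPKM in Esrp1-KO and 71.7 to 74.4 FPKM in WT, did not overlap. Without Sqstm1 the sum was 74.6 ± 1.64 FPKM in Esrp1-KO and 70.0 ± 0.79 FPKM in WT, and the ranges, 72.3 to 75.8 FPKM in Esrp1-KO and 69.4 to 71.1 FPKM in WT, did not overlap either. Sqstm1 made up 23.7 ± 4.99% of the receptor sum in Esrp1-KO and 4.06 ± 1.89% in WT. The share of Tax1bp1 was 46.2 ± 3.18% in Esrp1-KO and 60.6 ± 1.19% in WT, and that of Nbr1 was 18.2 ± 2.12% in Esrp1-KO and 23.8 ± 1.84% in WT. These shares sum to a whole, and the levels of Tax1bp1 and Nbr1 themselves were close in both genotypes. The shares of the receptors with a higher mean in Esrp1-KO were 8.80 ± 1.57% in Esrp1-KO and 8.87 ± 2.02% in WT for Optn, and 3.02 ± 0.69% in Esrp1-KO and 2.59 ± 0.21% in WT for Calcoco1. The LC3 family summed to 25.4 ± 3.87 FPKM in Esrp1-KO and 22.7 ± 8.75 FPKM in WT, with overlapping ranges. Gabarapl2 made up 48.4 ± 11.5% of it in Esrp1-KO and 60.3 ± 5.41% in WT, and Map1lc3b 42.7 ± 10.2% in Esrp1-KO and 30.6 ± 5.45% in WT.

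**Figure D3:**
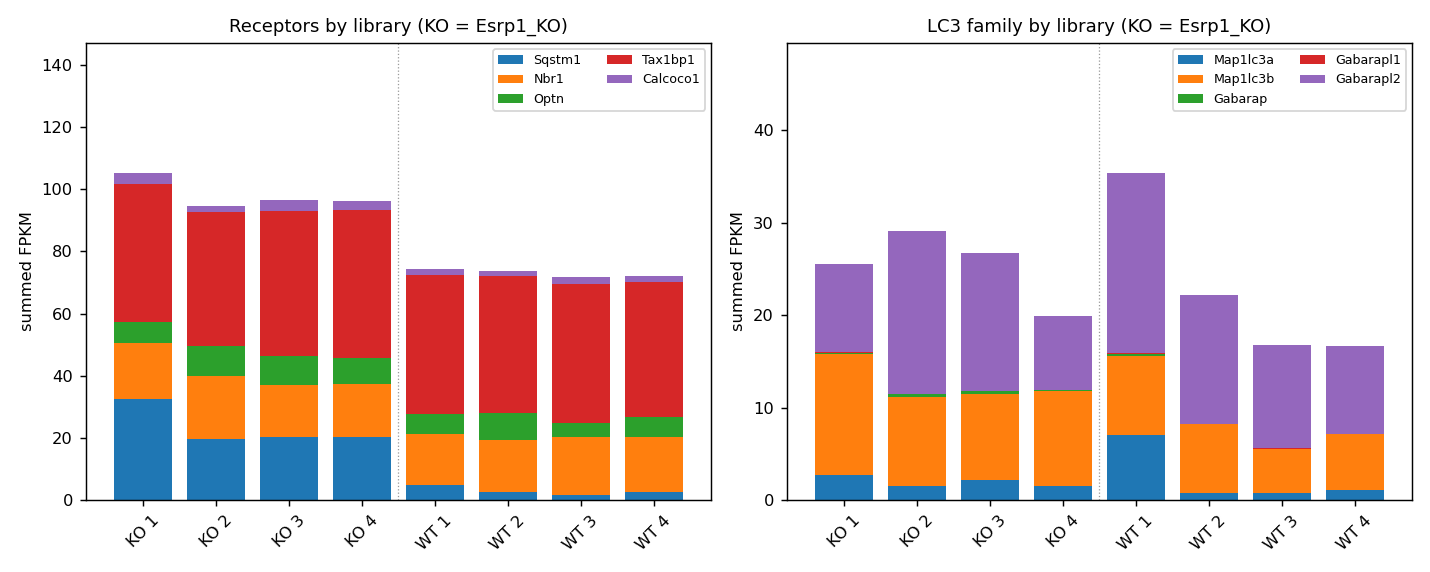
Summed FPKM of the 5 receptors (left) and of the 5 LC3 family genes (right), with 1 stacked bar per library, Esrp1_KO (KO) left of WT, and each colour a gene. The receptor bars reach 94.5 to 105 FPKM in Esrp1_KO and 71.7 to 74.4 FPKM in WT, where the Sqstm1 segment is the one that differs most, and the LC3 bars overlap between genotypes.

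The 5 genes whose pattern was most like that of Sqstm1 were taken by Pearson's r of log2(FPKM + 1) over the 8 libraries, among 3800 named genes whose mean reached 5 FPKM. They were Mthfd1, an enzyme of folate metabolism (r = 0.993), Utp18, a factor of ribosome assembly (0.988), Atg3, the enzyme that passes LC3 to its lipid (0.988), Gabpb1, a subunit of the GABP transcription factor (0.988), and Gdap1, a protein of the mitochondrial outer membrane (0.987). The 8 libraries share 2 genotypes, so most of this likeness is the difference between genotypes. With the group means taken off, r was between 0.811 (Gdap1) and 0.943 (Mthfd1). The 5 genes were picked by their r over these same libraries, which largely sets this remaining r as well. It therefore cannot show a likeness beyond the genotypes. Mthfd1 had 14.8 ± 1.72 FPKM in Esrp1-KO and 7.88 ± 1.11 FPKM in WT, and Gdap1 had 117 ± 7.29 FPKM in Esrp1-KO and 66.8 ± 6.86 FPKM in WT (SD, n = 4 each).

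The rest of the pathway was followed through 10 lists, from the kinase that starts an autophagosome to its fusion with the lysosome. Of 116 listed genes, 115 were found by symbol and 70 entered the fit, while 1, Vamp7, was not found by symbol and so was not analysed here. Of the 70, 14 were higher in Esrp1-KO, 12 were lower and 44 did not pass. The share past the threshold was 37.1%, close to the 36.9% of all genes, and the median log2 difference was 0.04, against -0.06 over all genes, so the pathway as listed did not stand apart by its counts. The lists are short, and the count of each is to be read beside the shares over all genes, 13.9% higher and 23.1% lower. Among the genes named below, Wipi1, Atg10, Retreg1, Retreg2, Nufip1 and Akt1s1 averaged under 1 FPKM in one genotype and entered the fit through the other. With no filter on low values, Akt1s1 was no longer past the threshold (limma adjusted p = 0.0893), and the other 5 were. In that setting Atg101, Nrbf2, Atg16l1, Bnip3, Nfe2l1 and Ripk1, also named below, lost the threshold too (limma adjusted p = 0.0544 to 0.0867).

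The machinery that joins LC3 to its lipid had 7 genes in the fit, of which 3 rose, 1 fell and 3 did not pass (median log2 difference 0.18). Atg3, the last enzyme of that chain, had 21.9, 17.5, 16.0 and 18.7 FPKM in Esrp1-KO, against 11.4, 9.92, 8.69 and 9.98 FPKM in WT. Its genotypes did not overlap, and it rose by a log2 difference of 0.82 ± 0.14 (SE; limma, adjusted p = 0.00123). Atg4a, a protease that trims LC3 proteins for the reaction, had 22.8 ± 4.91 FPKM in Esrp1-KO and 9.69 ± 0.64 FPKM in WT (log2 difference 1.13, adjusted p = 0.000489), but 51.2% of its 50-base stretches occur elsewhere, chiefly in the locus Atg4a-ps. Atg16l1, the scaffold that places the reaction on the membrane, had 53.4, 26.0, 19.7 and 32.7 FPKM in Esrp1-KO, against 17.8, 13.5, 16.2 and 18.0 FPKM in WT (log2 difference 0.88, adjusted p = 0.0247). That call was lost without Esrp1-KO replicate 4 (adjusted p = 0.0587), WT replicate 2 (0.0628) or WT replicate 3 (0.0545). Atg10, the enzyme that joins ATG12 to ATG5, ran the other way, with 0.396, 0.958, 1.34 and 0.659 FPKM in Esrp1-KO, against 6.75, 9.40, 5.27 and 5.93 FPKM in WT. Its log2 difference was -2.09 ± 0.20 (SE; limma, adjusted p = 7.38e-05). Atg5 itself, named after its values were seen because it was the most abundant transcript of the list, had 361 to 410 FPKM in Esrp1-KO and 319 to 363 FPKM in WT and did not pass.

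The steps before that one gave few calls, on few genes. In the ULK complex, which starts the process, 1 of 3 genes rose: Atg101, a subunit that steadies the complex, had 6.46 ± 1.97 FPKM in Esrp1-KO and 3.49 ± 0.87 FPKM in WT (SD, n = 4 each; log2 difference 0.72, limma adjusted p = 0.0262). Its genotypes overlapped, and the call was lost without Esrp1-KO replicate 2 (adjusted p = 0.0604), Esrp1-KO replicate 3 (0.0668), WT replicate 3 (0.062) or WT replicate 4 (0.0733). Of the 8 genes of the class III PI3-kinase complexes, which mark the growing membrane with a phosphoinositide, 1 fell. Nrbf2, a regulatory subunit, had 33.0 ± 9.09 FPKM in Esrp1-KO and 52.3 ± 8.49 FPKM in WT (log2 difference -0.67, adjusted p = 0.0259), although 65.8% of its 50-base stretches occur in other loci. That call was lost without Esrp1-KO replicate 2 (adjusted p = 0.0551), Esrp1-KO replicate 3 (0.0679), WT replicate 1 (0.0654) or WT replicate 4 (0.0729), and also under median-ratio scaling (0.0526). Among 4 genes of membrane supply 1 fell, Wipi1, a reader of that phosphoinositide, with 0.407 ± 0.28 FPKM in Esrp1-KO and 2.01 ± 0.39 FPKM in WT (log2 difference -1.11, adjusted p = 0.000948). The Wipi1 difference was -2.21 with a pseudocount of 0.1 and -2.55 with voom.

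Receptors other than the 5 above numbered 16 in the fit, and 3 rose, 3 fell and 10 did not pass (median log2 difference 0.03). The 3 that rose are receptors for endoplasmic reticulum, and 3 other such receptors in the fit did not pass, namely Retreg3 (log2 difference 0.07), Sec62 (-0.14) and Tex264 (0.36), looked up after their values were seen. Retreg1 had 2.07, 3.10, 2.95 and 3.45 FPKM in Esrp1-KO, against 0.249, 0.275, 0.170 and 0.486 FPKM in WT (log2 difference 1.58 ± 0.15 SE; limma, adjusted p = 6.76e-05). Retreg2, its relative, had 3.19, 1.57, 1.21 and 2.15 FPKM in Esrp1-KO, against 0.594, 0.0933, 0.118 and 0.161 FPKM in WT (log2 difference 1.26, adjusted p = 0.00151). Rtn3 had 18.8 ± 2.85 FPKM in Esrp1-KO and 11.1 ± 0.66 FPKM in WT (SD, n = 4 each; log2 difference 0.70, adjusted p = 0.00289). The genotypes did not overlap in Retreg1, Retreg2 or Rtn3. With a pseudocount of 0.1 and with voom, the difference was 2.96 and 3.33 for Retreg1 and 2.76 and 3.36 for Retreg2. Those that fell serve other cargo. Stbd1, a receptor for glycogen, had 16.4, 12.1, 9.0 and 10.9 FPKM in Esrp1-KO, against 70.2, 57.9, 53.6 and 79.1 FPKM in WT (log2 difference -2.35 ± 0.19 SE; limma, adjusted p = 2.88e-05). Nufip1, described as a receptor for ribosomes, had 0.317 ± 0.12 FPKM in Esrp1-KO and 1.70 ± 1.14 FPKM in WT (log2 difference -0.96, adjusted p = 0.0107), with WT replicate 1 at 3.41 FPKM and the other WT libraries at 1.05 to 1.19 FPKM. The Nufip1 difference was -0.70 without WT replicate 1, -1.99 with a pseudocount of 0.1 and -2.32 with voom. The filter used all libraries even in the fit without WT replicate 1. Left without that library, the mean of Nufip1 would not reach the 1 FPKM of the filter. Bnip3, a receptor for mitochondria, had 34.2 ± 8.33 FPKM in Esrp1-KO and 49.8 ± 4.38 FPKM in WT (log2 difference -0.56, adjusted p = 0.0252). Its genotypes overlapped, and other loci share 47.2% of its 50-base stretches. The Bnip3 call was lost without Esrp1-KO replicate 1 (adjusted p = 0.053), 2 (0.0554) or 4 (0.0583), without WT replicate 1 (0.067), 3 (0.0631) or 4 (0.0509), and under median-ratio scaling (0.061). Calcoco2, which encodes the receptor NDP52 and was looked up after its values were seen, was at 0 in 7 libraries and at 5.99 FPKM in WT replicate 1.

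**Figure D4:**
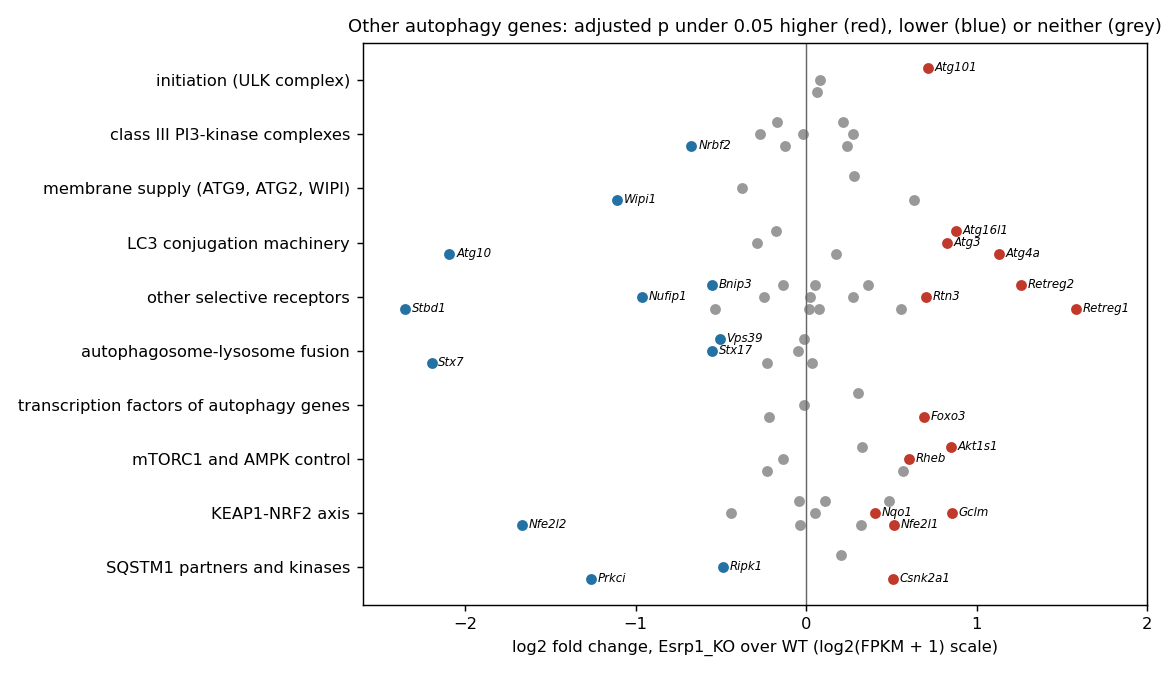
Log2 difference of FPKM + 1, Esrp1_KO minus WT, for the 70 pathway genes that entered the fit, 1 row per list (height within a row has no meaning), with red points for genes higher and blue points for genes lower in Esrp1_KO at an adjusted p under 0.05 and grey points for the others. Genes past the threshold lie on both sides of 0, with Retreg1 at 1.58 and Stbd1 at -2.35.

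Of the 7 genes for fusion of the autophagosome with the lysosome, 3 fell, 0 rose and 4 did not pass (median log2 difference -0.23), where 23.1% of all genes fell. Stx7, a SNARE protein of late endosomes, had 6.51, 5.73, 6.68 and 4.26 FPKM in Esrp1-KO, against 30.4, 27.8, 28.1 and 33.3 FPKM in WT. The genotypes were far apart, with a log2 difference of -2.20 ± 0.15 (SE; limma, adjusted p = 1.1e-05). Stx17, the SNARE protein of the autophagosome, had 15 ± 2.30 FPKM in Esrp1-KO and 22.4 ± 1.96 FPKM in WT (SD, n = 4 each; log2 difference -0.55, adjusted p = 0.0104). Vps39, a subunit of the HOPS tethering complex, had 3.04 ± 0.48 FPKM in Esrp1-KO and 4.74 ± 0.59 FPKM in WT (log2 difference -0.51, adjusted p = 0.0152).

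Among the 4 transcription factors of autophagy genes in the fit, 1 rose: Foxo3, which also holds primordial follicles at rest, had 8.62 ± 1.38 FPKM in Esrp1-KO and 4.92 ± 0.39 FPKM in WT (SD, n = 4 each; log2 difference 0.69, limma adjusted p = 0.00378). Of 6 genes of mTORC1 and AMPK control, which restrain and promote autophagy, 2 rose and 0 fell (median log2 difference 0.45). Rheb, the GTPase that switches mTORC1 on, had 130 ± 14.5 FPKM in Esrp1-KO and 85.7 ± 11.1 FPKM in WT (log2 difference 0.60, adjusted p = 0.0077). Akt1s1, a part of mTORC1 that inhibits it, had 2.45 ± 1.27 FPKM in Esrp1-KO and 0.874 ± 0.45 FPKM in WT (log2 difference 0.85, adjusted p = 0.0278). Its call was lost without Esrp1-KO replicate 4 (adjusted p = 0.0585), WT replicate 2 (0.0693) or WT replicate 3 (0.069), and its difference was 1.41 with a pseudocount of 0.1 and 1.54 with voom.

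p62 and the KEAP1-NRF2 pair act on each other: p62 sequesters KEAP1, and NRF2 drives Sqstm1 in other mouse cells. Of 11 genes of this axis in the fit, 3 rose, 1 fell and 7 did not pass (median log2 difference 0.11). The gene that fell was Nfe2l2, which encodes NRF2 itself. It had 1.82, 3.11, 3.36 and 2.50 FPKM in Esrp1-KO, against 9.97, 11.6, 9.90 and 11 FPKM in WT. The genotypes did not overlap, and the log2 difference was -1.67 ± 0.15 (SE; limma, adjusted p = 5.81e-05). Gclm, a subunit of the enzyme for glutathione synthesis and an NRF2 target, had 18.0 ± 3.8 FPKM in Esrp1-KO and 9.58 ± 2.57 FPKM in WT (SD, n = 4 each; log2 difference 0.85, adjusted p = 0.00882). Nqo1, a quinone reductase and another such target, had 19.3 ± 1.20 FPKM in Esrp1-KO and 14.3 ± 1.49 FPKM in WT (log2 difference 0.41, adjusted p = 0.0232). Nfe2l1, which encodes the related factor NRF1 of proteasome genes, had 22.4, 34.7, 21.3 and 22.3 FPKM in Esrp1-KO, against 14.6, 18.1, 18.4 and 17.1 FPKM in WT (log2 difference 0.51, adjusted p = 0.0372). The 7 genes that did not pass, looked up after their values were seen, went both ways. They were Mafg (log2 difference 0.49), Me1 (0.32), Txnrd1 (0.11), Prdx1 (0.05), Slc7a11 (-0.04), Gsr (-0.04) and Gclc (-0.44, limma adjusted p = 0.0598). Keap1 was below the filter, at up to 0.264 FPKM in Esrp1-KO and 0.541 FPKM in WT. The Nqo1 call was lost without Esrp1-KO replicate 4 (adjusted p = 0.0616), WT replicate 1 (0.0544) or WT replicate 3 (0.066). The Nfe2l1 call was lost without Esrp1-KO replicate 2 (adjusted p = 0.0507) or 4 (0.0529), or without WT replicate 1 (0.0992), 2 (0.0555), 3 (0.0574) or 4 (0.0759). Transcript levels say nothing here of the amount or the place of the NRF2 protein.

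Of 11 partners and kinases of p62, 4 entered the fit, and 1 rose and 2 fell. Prkci, an atypical protein kinase C that binds p62, had 3.40, 2.62, 3.19 and 3.62 FPKM in Esrp1-KO, against 8.87, 8.16, 8.39 and 11 FPKM in WT (log2 difference -1.26 ± 0.14 SE; limma, adjusted p = 0.000124). Ripk1, a kinase of inflammatory signalling bridged by p62, had 1.89 ± 0.46 FPKM in Esrp1-KO and 3.02 ± 0.33 FPKM in WT (SD, n = 4 each; log2 difference -0.49, adjusted p = 0.0244). That call was lost without Esrp1-KO replicate 1 (adjusted p = 0.0503), Esrp1-KO replicate 3 (0.0586), WT replicate 1 (0.0585) or WT replicate 2 (0.0571), and under quantile normalization. Csnk2a1, a casein kinase 2 subunit whose enzyme phosphorylates p62 where it binds ubiquitin, had 10.1 ± 0.72 FPKM in Esrp1-KO and 6.80 ± 0.63 FPKM in WT (log2 difference 0.51, adjusted p = 0.00731), and 32.5% of its 50-base stretches also occur elsewhere.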

How the data were processed

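RNA of 8 libraries of mouse oocytes was measured by Smart-seq2 RNA sequencing, per the labels' protocols. The authors deposited FPKM per gene, per the file headers, on GRCm38, per the submitters' processing notes. The sources used here do not name the aligner, the counter or the gene annotation. FPKM are relative to the library total, so abundant genes that change shift all others. Symbols came from GENCODE M21 for 24812 of 24860 genes. Times M21 exon length, about 90% of values above 0 were whole reads within 0.02 of a read, which gave reads and library totals of 24910433 to 32337965. Where that length failed for a gene with a mean of at least 1 FPKM, the smallest length with whole reads in all 8 libraries was taken. This search raised the genes with reads from 22618 to 23578. Whether PCR copies were removed is not known here, so reads cannot be taken as independent molecules.

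On log2(FPKM + 1), limma 3.58.1 (R 4.3.3) fitted genotype alone, with an intensity trend, to the 8021 genes whose mean reached 1 FPKM. Tests were two-sided, and p-values were adjusted by Benjamini-Hochberg across these genes, with a threshold of 0.05. This scale understates changes of low genes. The script was tested on simulated data. Same-numbered libraries deviated together in all 4 pairs (r = 0.226 to 0.317), so the replicate number was also fitted as a block. Some differently numbered libraries did so too: Esrp1-KO 1 with WT 4 gave the highest r of all (0.402), and Esrp1-KO 2 with WT 3 gave 0.252. Replicates of a genotype correlated at 0.95 to 0.981, and none was a duplicate. The members and lists were chosen with earlier results of these data known. Named genes were all members, Esrp1, of each list up to 4 genes per direction past the threshold, the 5 genes most like Sqstm1 and the 2 most abundant markers of each marker list; exceptions are stated. The markers Amh, Inha, Col1a1 and Cdh5 were not found by symbol and so were not analysed here.

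Alternatives were another pseudocount (0.1), no filter, a filter of 5 FPKM, median-ratio scaling, quantile normalization, no trend, each library left out, replicates 1 and 4 or 2 and 3 alone, the block and, chosen after seeing the data, voom on the recovered reads.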

Additional observations from a re-analysis of the deposited data

Results flagged for a closer look

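Of 74 groups of 4 libraries looked at, 6 held a library far from the other 3 by Dixon's test, and chance flags about 1 group in 20. Sqstm1 in Esrp1-KO replicate 1 was 32.7 FPKM, with the other Esrp1-KO libraries at 19.8 to 20.5 FPKM. In WT replicate 1, 4 genes stood above the other WT libraries: Map1lc3a at 7.06 FPKM, Gabarap at 0.247 FPKM, Retreg2 at 0.594 FPKM and Nufip1 at 3.41 FPKM. This is the library that listed the most genes above 0. Nfe2l1 in Esrp1-KO replicate 2 was 34.7 FPKM, with the other Esrp1-KO libraries at 21.3 to 22.4 FPKM.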

How the results depend on the processing

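The log2 difference of Sqstm1 was 2.48 to 2.87 with a library left out and 2.54 to 3.07 in the other alternatives, and that of Esrp1 was -2.18 to -2.00 and -2.43 to -1.90; Esrp1 stayed past the threshold in all 18. The number of members past the threshold, 3, was 2 with the filter at 5 FPKM, 4 with quantile normalization, 1 with no filter on low values, 1 with replicates 1 and 4 only, 1 with replicates 2 and 3 only and 1 to 3 with a library left out. Without a filter 10 genes rather than 8 were fitted, and the fits on replicate pairs hold fewer samples. The number of all genes past the threshold, 2961, was 1664 with a mean of at least 5 FPKM, where 4290 genes were fitted, 1489 with replicates 2 and 3 only, and 2417 to 2865 with a library left out. Of the calls over all genes, 62.5% were lower in Esrp1-KO, against 52.1% with median-ratio scaling and 51% with quantile normalization; the median log2 difference of all genes, -0.06, was then 0.02 and 0.03. The 26 other pathway genes past the threshold numbered 20 to 25 with a library left out and 18 to 30 otherwise. Of these 26, 11 (Atg10, Atg3, Atg4a, Gclm, Nfe2l2, Prkci, Retreg1, Retreg2, Stbd1, Stx7 and Wipi1) passed in every alternative in which they were fitted, 15 lost the threshold in at least 1, and 0 changed sign. With the replicate block 3406 genes passed, within 1.5 times the number without it, and the pairing ended no call of a named gene. The cause of these changes was not tested. Gabarap and Gabarapl1 had few reads, lay below the filter and did not enter the main fit. With no filter on low values neither passed, as Sqstm1 was then the 1 member past the threshold.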
